A study of Mus musculus with 4 samples.

Results

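The genes described here are 9 neurotrophic ligands and receptors, namely the ligand genes Bdnf, Ntf3, Gdnf and Nrtn and the receptor genes Ngfr, Ntrk2, Ntrk3, Gfra1 and Gfra2. They were picked by gene name, and all 9 were found among the 22072 genes of the deposited tables. RNA was sequenced from the mesenchyme of mouse molar tooth germs at embryonic day 14, taken by laser capture from cryosections of the head. The 4 libraries were Msx1-/- (mutant) upper molar, Msx1-/- lower molar, Msx1+/- (control) upper molar and Msx1+/- lower molar, with 1 library in each group. All embryos were of a mixed background, the mutant allele is not named in the labels, and the controls carry the mutation in heterozygous form although the series title speaks of wild type. RNA came from tissue pooled over 3 mutant and control pairs, so no value below has a replicate and no difference within a jaw has a replicate check. Pooled tissue also does not tell fewer cells of a type from less RNA per cell.

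Neurotrophic factors are secreted proteins that keep neurons alive and guide the growth of their axons. The neurotrophins, which include the products of Bdnf and Ntf3, bind Trk receptor tyrosine kinases and share the receptor encoded by Ngfr. Ligands of the GDNF family, such as those of Gdnf and Nrtn, bind a GFRα co-receptor held on the membrane by a lipid anchor, and the complex signals through the receptor tyrosine kinase Ret. In the tooth these factors are known from the dental mesenchyme and its surroundings, before and while nerve fibres from the trigeminal ganglion grow towards the tooth germ.

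Of the 9 genes, 4 stayed below 1 FPKM (fragments scaled to transcript length and library size) in every library, and these were Bdnf, Ntf3, Gdnf and Gfra1. Ngfr, Ntrk2 and Gfra2 were above 1 FPKM in every library. Nrtn was below 1 FPKM in the control upper library alone, and Ntrk3 was below 1 FPKM in both mutant libraries and above it in both control libraries. By the mean over the 4 libraries the order was Ngfr (21.2 FPKM), Gfra2 (12.7 FPKM), Ntrk2 (6.84 FPKM), Ntrk3 (2.07 FPKM), Nrtn (1.18 FPKM), Ntf3 (0.636 FPKM), Bdnf (0.370 FPKM), Gfra1 (0.362 FPKM) and Gdnf (0.355 FPKM). Without replicates neighbours in this order could not be told apart, and the last 3 differed by less than any of them varied over the libraries. A gene was called higher or lower where log2(FPKM + 1) differed by at least 1, provided that its mean level reached 1 FPKM. Of the 9 genes 5 met that minimum, as did 10493 genes in all.

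**Figure D1:**
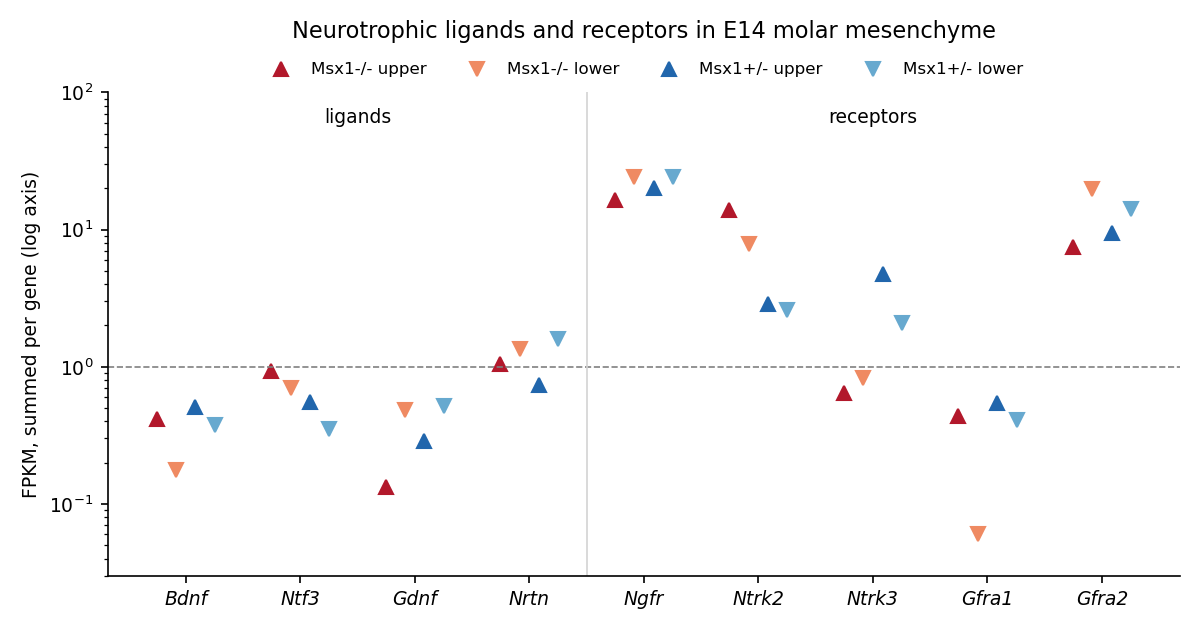
FPKM per gene on a log axis for the 4 ligand and 5 receptor genes, with 1 point per library (triangles pointing up for upper and down for lower molars, red shades for Msx1-/-, blue shades for Msx1+/-) and a dashed line at 1 FPKM. Bdnf, Ntf3, Gdnf and Gfra1 lie below the line in every library, both mutant values of Ntrk2 lie above both control values, and both mutant values of Ntrk3 lie below both control values.

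Ntrk2 and Ntrk3, the genes for the receptors TrkB and TrkC, each have a short and a long transcript entry in the tables, and in every library most of the FPKM was assigned to the short ones. The coding sequence of each short transcript leaves that of the long one before the tyrosine kinase domain and ends early. The sequences below show that point, because in both genes most of the FPKM difference between genotypes lay in the short entries. They come from the GENCODE M21 transcripts that its tables pair with the RefSeq entries (build GRCm38), are written 5′ to 3′ on the coding strand, and hold coding bases only. The last 30 bases that short and long share are in lower case. Capitals mark what follows the split, which is all of the rest of the short coding sequence, or the first 60 bases of the rest of the long one.
Ntrk2 short: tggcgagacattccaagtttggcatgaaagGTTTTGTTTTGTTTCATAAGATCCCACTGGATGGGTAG
Ntrk2 long: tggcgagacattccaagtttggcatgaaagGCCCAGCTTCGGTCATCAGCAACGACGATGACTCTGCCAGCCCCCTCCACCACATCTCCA
Ntrk3 short: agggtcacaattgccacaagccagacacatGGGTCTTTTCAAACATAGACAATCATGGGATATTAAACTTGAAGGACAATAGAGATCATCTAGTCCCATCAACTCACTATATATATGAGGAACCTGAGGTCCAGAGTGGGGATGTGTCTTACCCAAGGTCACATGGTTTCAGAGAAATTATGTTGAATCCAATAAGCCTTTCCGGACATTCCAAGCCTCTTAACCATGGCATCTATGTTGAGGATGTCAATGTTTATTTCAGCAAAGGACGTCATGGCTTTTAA
Ntrk3 long: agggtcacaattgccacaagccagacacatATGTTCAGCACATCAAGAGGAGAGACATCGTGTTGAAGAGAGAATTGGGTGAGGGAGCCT
The capitals of the short Ntrk2 transcript lie on the plus strand at chr13:58932023-58932060 and those of the long one at chr13:58985802-58985861. For Ntrk3, on the minus strand, the capitals of the short transcript span chr7:78302629-78304426 with an intron between them, and those of the long one lie at chr7:78260355-78260414. Short and long Ntrk2 share the first 1393 coding bases, after which the short form adds 11 codons and the long form 356. Short and long Ntrk3 share the first 1585 coding bases, after which the short form adds 83 codons and the long form 296.

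Ntrk2 (chromosome 13, 58907957 to 59231328, mm9) encodes the high-affinity receptor for the products of Bdnf and of the neurotrophin-4/5 gene. It had 14.0 FPKM in mutant upper and 7.88 FPKM in mutant lower molars, against 2.89 FPKM in control upper and 2.60 FPKM in control lower molars. Both mutant libraries were above both control libraries, and the control libraries were close to each other. On the log2(FPKM + 1) scale the mutant minus control differences were 1.95 (upper) and 1.30 (lower), and on the deposited FPKM the mutant level was 4.84 times the control level in upper and 3.03 times in lower molars. Ntrk2 was thus called higher in both jaws, as 1 of the 5 genes that met the minimum, and 0 of them were called lower in both. Over all genes tested, 0.4% were called higher and 1.56% lower in both jaws. In upper molars, whether or not called in the other jaw, 1.07% of all genes were called higher and 3.23% lower. In lower molars, counted likewise, 0.858% were called higher and 9.34% lower. After rescaling by median of ratios the lower molar calls were 211 higher and 364 lower, against 90 and 980 as deposited. All genes had a median difference of -0.03 in upper molars and -0.39 in lower ones, and relative to these Ntrk2 stood at 1.98 and 1.69. The 5 genes themselves had median differences of -0.26 (upper) and -0.01 (lower). With a pseudocount of 5 its lower molar difference was 0.76 and was no longer called.

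The short Ntrk2 entry had 13.9 and 7.88 FPKM in mutant upper and lower molars, against 2.89 and 2.55 FPKM in control upper and lower molars. The long entry, which codes for the kinase, had 0.0991 FPKM in mutant upper and 0.0432 FPKM in control lower molars and was assigned next to nothing in the other libraries. In every library at least 98.3% of Ntrk2 FPKM was therefore assigned to the short entry, whose protein has the TrkB ligand-binding part and a short tail in place of the kinase. How reads were divided between the entries rests on the annotation used. The long Ntrk2 entry is 4605 bases in the tables and 8744 bases in GENCODE M21, whereas the short one is 7003 bases in the tables and 3049 bases in GENCODE M21, so bases outside the coding region make up most of the short entry. What part of this split follows from those lengths was not tested.

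Ntrk3 (chromosome 7, 85337000 to 85722724, mm9), whose product TrkC is the receptor for the Ntf3 protein, had the opposite sign. It had 0.640 FPKM in mutant upper and 0.831 FPKM in mutant lower molars, against 4.72 FPKM in control upper and 2.09 FPKM in control lower molars. Both mutant libraries were below both control libraries, and the control upper library was the highest. In upper molars the mutant minus control difference was -1.80, which was called, and in lower molars it was -0.76, which was not. On the deposited FPKM the mutant level was 0.136 of the control level in upper and 0.398 in lower molars. Of the 5 genes 1 (Ntrk3) was thus called lower in upper molars, where 3.23% of all genes were. In lower molars 0 were, where 9.34% of all genes were. Ntrk3 met the minimum level through the control libraries, where it is high, which favours a call of lower. The call is therefore a description only. With a pseudocount of 0.1 the lower molar difference was -1.23 and was called, and with a pseudocount of 5 the upper molar difference was -0.79 and was not. Relative to the median of all genes the differences were -1.77 in upper and -0.37 in lower molars.

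The short Ntrk3 entry had 0.546 and 0.639 FPKM in mutant upper and lower molars, against 4.48 and 1.72 FPKM in control upper and lower molars. The long entry had 0.0944 and 0.192 FPKM in the mutant libraries, against 0.242 and 0.367 FPKM in the control libraries in the same order of jaws. The short entry thus held 85.3% and 76.9% of Ntrk3 FPKM in mutant upper and lower molars, against 94.9% and 82.4% in control upper and lower molars. The long Ntrk3 entry of the tables is 2978 bases long, against 19703 bases in GENCODE M21, and the short one is 3832 bases against 3977 bases. What part of the Ntrk3 split follows from those lengths was not tested either. At these FPKM levels the mean read depth per transcript base of the whole gene was 0.695 and 0.768 in mutant upper and lower molars. It was 4.94 and 1.70 in control upper and lower molars, so the mutant values rest on little sequence.

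**Figure D2:**
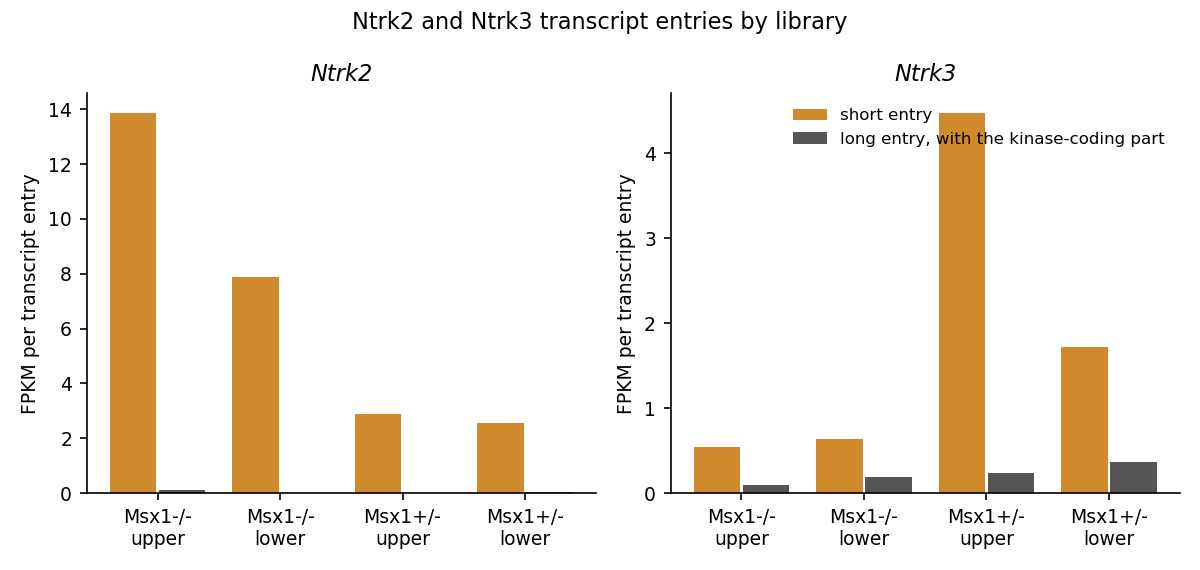
FPKM of the short and the long transcript entry of Ntrk2 (left) and Ntrk3 (right) in each library, as bars from 0 with 1 library per bar. The short Ntrk2 entry stands at 13.9 and 7.88 FPKM in mutant molars against 2.89 and 2.55 FPKM in control molars, the short Ntrk3 entry at 0.546 and 0.639 FPKM against 4.48 and 1.72 FPKM, and the long entries stay below 0.4 FPKM.

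Ngfr (chromosome 11, 95430140 to 95449012, mm9) encodes the low-affinity neurotrophin receptor, a member of the tumour necrosis factor receptor family without a kinase that is also known from neural crest cells and dental follicle mesenchyme. It had 16.5 FPKM in mutant upper and 24.1 FPKM in mutant lower molars, against 20.0 FPKM in control upper and 24.2 FPKM in control lower molars. The lower molar libraries were above the upper molar libraries in both genotypes, and the genotypes overlapped. Its level was above 85.2% of the genes tested in the library where it ranked lowest and above 92.8% in the one where it ranked highest. Mutant minus control, Ngfr stood at -0.26 (upper) and -0.01 (lower), and the second value became 0.40 to 0.49 under the 3 rescalings of the libraries. The upper minus lower difference was -0.53 in mutant and -0.27 in control molars. None of these was called.

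Gfra2 (chromosome 14, 71289937 to 71379645, mm9) encodes the co-receptor that prefers the product of Nrtn. It had 7.52 FPKM in mutant upper and 19.9 FPKM in mutant lower molars, against 9.41 FPKM in control upper and 14.0 FPKM in control lower molars. Upper molars were below lower molars in both genotypes, and the genotypes overlapped, with the mutant libraries at both ends. The upper minus lower difference was -1.30 in mutant molars, which was called, and -0.53 in control molars, which was not. In mutants 0.419% of all genes were called lower and 3.16% higher in upper than in lower molars, and a rescaling by median of ratios turned these 44 and 332 genes into 93 and 146. Between control jaws 0 of the 5 genes were called in either direction, where 1.47% of all genes were called higher and 0.181% lower in upper molars. In both genotypes 0.133% of all genes were called higher and 0.0286% lower in upper molars, with 0 of the 5 genes among them. Relative to the median of all genes the Gfra2 jaw differences were -1.57 in mutant and -0.44 in control molars. With a pseudocount of 5 the mutant value was -0.99 and was not called. Mutant minus control, Gfra2 stood at -0.29 (upper) and 0.48 (lower), neither of which was called, and whether the jaws differ in this was not tested.

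Gfra1 (chromosome 19, 58311182 to 58528956, mm9), the co-receptor gene for the Gdnf protein, was near the lower end of detection. It had 0.434 FPKM in mutant upper and 0.0606 FPKM in mutant lower molars, against 0.545 FPKM in control upper and 0.409 FPKM in control lower molars. The mutant lower library was below the other three, at a mean depth of 0.0560 reads per base, and Gfra1 was not entered in the calls. Gfra2 RNA was above Gfra1 RNA per kilobase in all 4 libraries.

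Among the ligand genes Nrtn (chromosome 17, 56890748 to 56896953, mm9), which encodes neurturin, had 1.04 FPKM in mutant upper and 1.34 FPKM in mutant lower molars, against 0.741 FPKM in control upper and 1.60 FPKM in control lower molars. The control libraries lay at both ends of this range, and lower molars were above upper molars in both genotypes, as for Ngfr and Gfra2. Mutant minus control, Nrtn stood at 0.23 (upper) and -0.15 (lower), and the second value became 0.10 to 0.16 under the 3 rescalings. The upper minus lower difference was -0.20 in mutant and -0.58 in control molars. None was called, and with a pseudocount of 0.1 the control jaw difference was -1.02 and was called.

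Gdnf (chromosome 15, 7761011 to 7787575, mm9), the gene for the founding ligand of its family, had 0.132 FPKM in mutant upper and 0.481 FPKM in mutant lower molars, against 0.286 FPKM in control upper and 0.518 FPKM in control lower molars. Both lower molar libraries were above both upper molar libraries. Ntf3 (chromosome 6, 126051430 to 126116762, mm9), which encodes neurotrophin-3, had 0.933 FPKM in mutant upper and 0.700 FPKM in mutant lower molars, against 0.557 FPKM in control upper and 0.353 FPKM in control lower molars. Both mutant libraries were above both control libraries, and the mutant minus control differences were 0.31 (upper) and 0.33 (lower). These differences fall short of the size called, and the depth behind them was 1.01 and 0.646 reads per base in mutant upper and lower molars, against 0.582 and 0.287 in control upper and lower molars.

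Bdnf (chromosome 2, 109514857 to 109567200, mm9), which encodes brain-derived neurotrophic factor, had 0.418 FPKM in mutant upper and 0.176 FPKM in mutant lower molars, against 0.509 FPKM in control upper and 0.378 FPKM in control lower molars. Upper molars were above lower molars in both genotypes. Of the 4 Bdnf entries and the 3 Ntf3 entries of the tables, 1 of each held over 99% of the gene's FPKM in every library. Nrtn and Ntf3 were the ligand genes with the highest means, and the highest value of any of the 4 ligand genes was 1.60 FPKM.

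The other genes of both pathways, from lists written for this purpose, were described by the same rule. Of 25 other neurotrophin genes (ligands, receptors, processing enzymes and receptor adaptors) 17 had a mean of at least 1 FPKM, of which 1 was called higher and 1 lower in both jaws. The median differences of the 17 were -0.11 (upper) and -0.40 (lower), against -0.03 and -0.39 over all genes. In both jaws 0.4% of all genes were called higher and 1.56% lower. In lower molars 9.34% of all genes were called lower. Ndfip1 (-1.50) and Tnfrsf19 (-1.32) were also called lower there, but not in upper molars. Under the 3 rescalings of the libraries Ndfip1 was still called and Tnfrsf19 was not. Of the genes called in both jaws, 1 was higher and 1 lower. The higher one was Sorcs2, which encodes a sortilin-family receptor that binds proneurotrophins, at 6.12 and 2.84 FPKM in mutant upper and lower molars, against 1.36 and 0.516 FPKM in control upper and lower molars. Its differences were 1.59 in upper and 1.34 in lower molars. The lower one was Plat, the gene of tissue plasminogen activator, a protease that also acts in the cleavage of proneurotrophin, at 0.925 and 0.685 FPKM in mutant upper and lower molars, against 6.93 and 6.59 FPKM in control upper and lower molars. Its differences were -2.04 and -2.17. Plat met the minimum level through the control libraries and Sorcs2 through the mutant ones, where each is high. Both calls are therefore descriptions only. With a pseudocount of 5 Sorcs2 was not called in either jaw.

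The highest means of the neurotrophin list belonged to Maged1 (179 and 99.3 FPKM in mutant upper and lower molars, against 171 and 173 FPKM in control upper and lower molars) and Ngfrap1, whose products both bind the Ngfr protein. Ngfrap1 had 73.3 and 60.1 FPKM in mutant upper and lower molars, against 68.0 and 82.8 FPKM in control upper and lower molars, and neither gene was called.

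Of 13 other genes of the GDNF family system 6 had a mean of at least 1 FPKM, and 0 were called in either jaw, with median differences of 0.25 (upper) and -0.18 (lower). Ret, the signalling receptor of that family fell short of this minimum with a mean of 0.779 FPKM. It had 0.00573 FPKM in mutant upper and 0.0360 FPKM in mutant lower molars, against 2.06 FPKM in control upper and 1.02 FPKM in control lower molars. Both mutant libraries were thus close to 0, and the log2(FPKM + 1) differences were -1.60 in upper and -0.96 in lower molars. Ncam1, an alternative GDNF co-receptor gene, had 23.1 FPKM in both mutant upper and mutant lower molars, against 18.9 and 20.5 FPKM in control upper and lower molars. Grb10, an adaptor gene of receptor tyrosine kinases, had the highest mean of this list, at 167 and 85.4 FPKM in mutant upper and lower molars, against 144 and 157 FPKM in control upper and lower molars.

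In the third list, of 16 genes of other neurotrophic families, 9 had a mean of at least 1 FPKM and 0 were called in both jaws, with median differences of -0.15 (upper) and -0.21 (lower). Cntfr, the binding subunit of the ciliary neurotrophic factor receptor, was called higher in upper molars alone (3.95 and 2.76 FPKM in mutant upper and lower molars, against 0.911 and 1.32 FPKM in control upper and lower molars), at 1.37 in upper and 0.69 in lower molars. Manf, the gene of a secreted neurotrophic factor, was called lower in lower molars alone, at -1.23. In lower molars 9.34% of all genes were called lower. Manf was not called under any of the 3 rescalings of the libraries. With a pseudocount of 5 it was at -0.73 and was not called. Cntfr was also called in lower molars with a pseudocount of 0.1 and when libraries were rescaled to a common upper quartile or total. It was not called there after rescaling by median of ratios. With a pseudocount of 5 Cntfr stood at 0.60 (upper) and 0.30 (lower) and was called in neither jaw. Of all genes 1.07% were called higher in upper and 0.858% in lower molars. Mdk, the midkine gene, had the highest mean, at 323 and 339 FPKM in mutant upper and lower molars, against 328 and 334 FPKM in control upper and lower molars. Ptn, the gene of the related growth factor pleiotrophin, followed at 82.1 and 103 FPKM in mutant upper and lower molars, against 123 and 131 FPKM in control upper and lower molars.

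**Figure D3:**
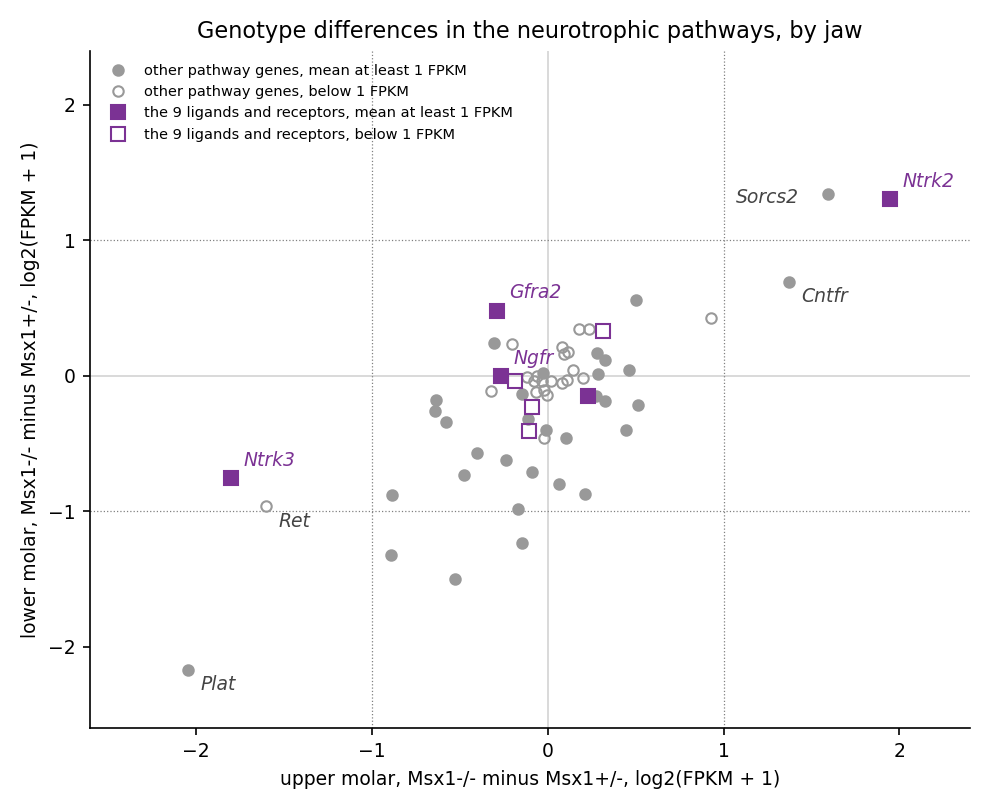
Mutant minus control difference of log2(FPKM + 1) in upper molars (horizontal) and lower molars (vertical) for the 9 ligands and receptors (squares) and the other genes of the 3 lists (circles), open where the mean is below 1 FPKM; dotted lines mark differences of 1. Ntrk2 (1.95 and 1.30) and Sorcs2 lie past both lines in the higher direction, Plat lies past both in the lower direction, and Ntrk3 (-1.80 and -0.76) and Ret lie past the line for upper molars.

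For the genes of the set that ranged by at least 1 on the log2(FPKM + 1) scale, the 3 genes with the most similar profile over the 4 libraries were found, by the largest difference between profiles centred on their means. For Ntrk2 these were Mpped2, the homeobox gene Meis2 and the matrix gene Efemp1, within 0.11, 0.15 and 0.26. For Ntrk3 they were Pitpnm3, Cpt1a, which encodes an enzyme of fatty acid import into mitochondria, and the T-box gene Tbx2, within 0.08, 0.12 and 0.13. For Gfra2 they were the growth factor gene Pdgfa, Emb and the collagen gene Col25a1, within 0.10, 0.14 and 0.16. A profile over 4 libraries is a description of these libraries.

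The captured tissue was checked against defining markers. Summed levels of 11 mesenchyme markers were 1060 and 827 FPKM in mutant upper and lower molars, against 1016 and 1077 FPKM in control upper and lower molars. Col1a1, the most abundant along with Vim, had 204 and 201 FPKM in mutant upper and lower molars, against 144 and 181 FPKM in control upper and lower molars, and Prrx2 was called lower in both jaws. Msx1 RNA itself was detected in the mutant libraries, at 126 and 85.9 FPKM in upper and lower molars, against 170 and 184 FPKM in the controls, and with the allele not named and no value per exon, these levels check no label. Endothelial markers (8 genes, led by Cdh5 and Pecam1) summed to between 42.1 and 51.6 FPKM over the libraries, with 0 called in both jaws.

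Neurons and glia express most of the genes described here, and the markers of these cells were low. The part of these cells in the Ntrk2 and Ntrk3 differences was not tested. Of 15 neuron markers 2 or 3 reached 1 FPKM in a library, and they summed to 23.6 and 11.2 FPKM in mutant upper and lower molars, against 18.2 and 13.5 FPKM in control upper and lower molars. Without Gap43 the sums were 5.05 and 7.29 FPKM in mutant upper and lower molars, against 9.21 and 9.96 FPKM in control upper and lower molars. Gap43 and Uchl1 were the most abundant of them. Of the 3 with a mean that reached 1 FPKM, 0 were called in both jaws. In lower molars alone the neurofilament gene Nefl was called higher (3.52 FPKM in mutant against 0.829 FPKM in control molars). Uchl1 was called lower there alone (1.37 FPKM in mutant against 5.53 FPKM in control molars). Of all genes 0.858% were called higher and 9.34% lower in lower molars. Nefl met the minimum level through the mutant lower library, where it is high, and was at or below 0.829 FPKM elsewhere. Its call is therefore a description only. The 10 Schwann cell and glia markers summed to 3.61 and 1.09 FPKM in mutant upper and lower molars, against 3.77 and 2.58 FPKM in control upper and lower molars, with Fabp7 and S100b the most abundant and Sox10 at or below 0.662 FPKM. Skeletal muscle markers (9 genes) summed to between 4.17 and 6.68 FPKM, with Chrna1 and Tnnt1 the most abundant and Myog and Myod1 at or below 0.0427 FPKM.

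Markers of some other tissues differed between the genotypes. Of 12 epithelial markers 7 had a mean of at least 1 FPKM, and the 12 summed to 51.2 and 72.6 FPKM in mutant upper and lower molars, against 28.8 and 46.0 FPKM in control upper and lower molars. Krt5 (21.3 and 28.1 FPKM in mutant upper and lower molars, against 7.18 and 17.0 FPKM in control upper and lower molars) and Krt14 were the most abundant, and Krt15 was called higher in both jaws. The 7 cartilage markers, led by Hapln1 and Col2a1, summed to 14.1 and 21.1 FPKM in mutant upper and lower molars, against 6.71 and 5.58 FPKM in control upper and lower molars, with Hapln1 called higher in both jaws. The 7 osteoblast markers, led by Alpl and Ibsp, summed to 50.4 and 31.5 FPKM in mutant upper and lower molars, against 34.1 and 33.7 FPKM in control upper and lower molars, with Ibsp and Ifitm5 called higher and Spp1 lower in both jaws. Spp1 met the minimum level through the control libraries, where it is high, so its call is a description only. Of all genes 0.4% were called higher and 1.56% lower in both jaws. The part of epithelium, cartilage and osteoblasts in the Ntrk2 and Ntrk3 differences was not tested.

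**Figure D4:**
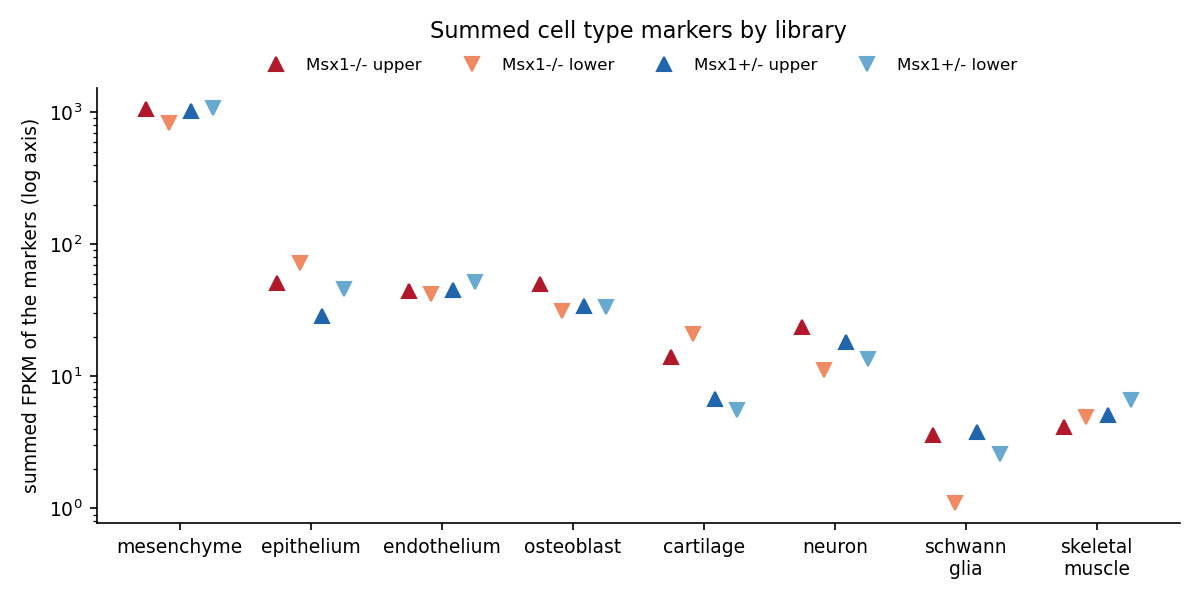
Summed FPKM of the markers of 8 tissues or cell types on a log axis, with 1 point per library (symbols as for the plot of the 9 genes). Mesenchyme markers sum to between 827 and 1077 FPKM, epithelial and cartilage markers are higher in mutant than in control molars of the same jaw, and glia and muscle markers stay below 7 FPKM.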

How the data were processed

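RNA of 4 laser-captured mouse molar mesenchyme pools was amplified, per the labels' protocols (NuGEN Ovation RNA-Seq v2), which name no strand-specific step. The submitters' processing notes name TopHat 1.4.1, Bowtie 0.12.7 and the build mm9. The tables carry Cufflinks columns (version not given in the sources used here). What the authors deposited, per the file headers, is FPKM and a coverage signal (mean read depth per base) for each of 28107 transcript entries. Coverage equalled FPKM times 1.09 and 0.924 for mutant upper and lower and 1.05 and 0.812 for control upper and lower molars. It gave the depths quoted, and summed to between 264 and 410 megabases. Read counts were not used here, so no counting interval is given. FPKM was summed per gene. Genes with a non-OK estimate (249, none among the 9 genes or the lists) and small RNA names (715) were left out of the calls. Differences are of log2(FPKM + 1). Of 143 listed symbols 142 were found, the exception being Ntf4, listed as Ntf5. Start positions count from 0, so 1 was added. GENCODE M21 (GRCm38) was used for coding sequences only and never for mm9 coordinates. The neuron sum without Gap43 was added after seeing the data. Genes were named by a fixed rule, which takes the 9 genes, Ret, listed genes called in both jaws, the 2 highest means of a list and the 3 most similar profiles. Some genes that the rule names are not reported here. Cntfr, Manf, Ndfip1, Tnfrsf19, Nefl, Sox10, Myog and Myod1 were chosen after their values were seen. The 9 genes and the lists were chosen with earlier results of these data known. Alternatives were other pseudocounts, minimum levels, rescalings, transcript choice and limma 3.58.1 (R 4.3.3), which was tested on simulated data. Python 3.11.15, pandas 2.3.3, numpy 2.4.6 and matplotlib 3.10.9 were used.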

Additional observations from a re-analysis of the deposited data

Results flagged for a closer look

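With 1 library per group, 3 results were flagged because a difference had opposite signs in the jaws or in the genotypes. None of these contrasts was tested. The share of all genes with opposite signs was not counted, so the number flagged is no result about these genes. Ntrk3 was lower in upper than in lower molars of mutants (-0.16) and higher in upper molars of controls (0.89). The contrast between these jaw differences was -1.05, and both mutant values of Ntrk3 were below 1 FPKM. Gfra2, mutant minus control, was at -0.29 in upper and 0.48 in lower molars, a contrast of -0.77. Nrtn was at 0.23 in upper and -0.15 in lower molars, a contrast of 0.38, and the lower molar value turned positive under each of the 3 rescalings. The median of this contrast over all genes was 0.34.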

How the results depend on the processing

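The 5 genes that met the minimum had 172 values under 9 alternatives. Of these 165 kept their side of the threshold, 3 were no longer called, 4 became called and 0 called values changed sign. Many of the 165 could not have changed. Other minimum levels and keeping non-OK estimates alter only which genes enter, and the highest transcript entry is the sum itself for Ngfr, Nrtn and Gfra2. The count of 165 is therefore no measure of robustness. Ntrk2 ranged from 1.27 to 2.24 in upper and from 0.76 to 1.73 in lower molars. Calls of the 9 genes changed as follows. With a pseudocount of 0.1, 1 gene (Ntrk3) was also lower in lower molars and so in both jaws, and between control jaws 1 was higher (Ntrk3) and 1 lower (Nrtn) in upper molars; 1 gene of other neurotrophic families was higher (Cntfr) and 1 lower (Lifr) in both jaws. With a pseudocount of 5, Ntrk2 in upper molars alone remained called, so that 0 were lower in upper molars, 0 higher in lower molars, 0 higher in both jaws and 0 lower between mutant jaws, and 0 neurotrophin genes were higher in both jaws. With a mean of at least 5 FPKM, Ntrk3 was not tested (0 lower in upper molars), nor were Sorcs2 and Plat (0 higher and 0 lower). Rescaled to a common upper quartile or total, 1 gene of other families (Cntfr) was higher in both jaws. With the highest transcript entry in place of the sum, 1 gene (Ntrk3) was higher in upper control molars. The cause of these changes was not tested beyond the fewer genes entered. The genes entered were 10493 with either pseudocount, 5301 at a mean of at least 5 FPKM and 10346 with the highest transcript entry.

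Over all genes, calls in both jaws were 42 higher and 164 lower, against 87 and 275 with a pseudocount of 0.1, 14 and 66 with one of 5, 24 and 104 at a mean of at least 5 FPKM, and after rescaling 68 and 125 (median of ratios), 82 and 111 (upper quartile) and 76 and 117 (total). In lower molars 90 were higher and 980 lower, against 211 and 364 after rescaling by median of ratios. These became 175 and 1692 with a pseudocount of 0.1, and 29 and 311 with one of 5. In upper molars 339 were lower, against 140 with a pseudocount of 5 and 208 at a mean of at least 5 FPKM. Between mutant jaws 44 were lower in upper molars, against 8 with a pseudocount of 5. Between control jaws 154 were higher and 19 lower in upper molars. With a pseudocount of 0.1 they were 229 and 85, and with the highest transcript entry 210 and 88.

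A limma fit with genotype and jaw over the 4 libraries, which takes the jaws as repeats although they may share embryos, called 126 genes higher and 455 lower at an adjusted p under 0.05, and with genotype alone 66 and 240. Of the 9 genes it called 1 higher and 1 lower. Ntrk2 had a mean difference of 1.62 and Ntrk3 one of -1.28. With 4 libraries limma takes its errors largely from a trend over all genes, so its calls do not measure the spread of either gene. Ntrk3 also met the minimum level through the control libraries, where it is high, and its call supports nothing here. The jaw term pairs the genotypes by jaw. No paired analysis was possible by replicate because the labels number no replicates and each group has 1 library.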
